A study of Mus musculus with 6 samples.

Results

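The insulin-like growth factor (IGF) axis was examined in ATAC-seq data from MLL-ENL–transformed mouse fetal liver cells. Its members were 10 genes, namely the ligands Igf1 and Igf2, the receptors Igf1r and Igf2r, the adaptors Irs1 and Irs2, the binding proteins Igfbp3, Igfbp4 and Igfbp7, and the mRNA-binding protein gene Igf2bp3. Accessible regions were assigned to a member when they overlapped its gene body in the GENCODE M21 annotation (mm10) or the 50 kb on either side. By this rule 16 of the 10016 regions in the authors' deposited table belonged to the IGF axis, and they lay at 6 of the 10 genes.

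ATAC-seq inserts sequencing adapters into open chromatin with the Tn5 transposase, and the reads over a region measure its accessibility. The series held 6 samples in 3 groups of 2, all from cells that carried MLL-ENL and grew in IL-3 at 10 ng/ml, with 50000 sorted cells per library. WT cells had a wild-type Cebpa and Cebpb genotype per the labels. The paper describes its WT cells as derived from mice with floxed alleles of Cebpb or of both genes. The dKO cells lacked Cebpa and Cebpb, which encode C/EBPα and C/EBPβ, transcription factors of the myeloid lineage, and expressed GFP from a retroviral vector. The paper reports strong expression of the related protein C/EBPε in all its dKO clones, so dKO does not mean cells without any C/EBP. The third group, dKO-LAP*, was dKO that expressed GFP and the rat C/EBPβ isoform LAP*, and was not analysed here because the table has columns for WT and dKO only. The dKO cells came from clones that survived Cre treatment, and the WT labels name no GFP or vector, so that genotype, vector and clone cannot be told apart. The labels do not say whether replicates were separate cultures.

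The authors' deposited values are log2 means of normalised reads over the 2 libraries of a group. No standard deviation was therefore available, and no test across replicates could be run here. The authors' own P-values were used only to check the threshold. Each change is the dKO mean minus the WT mean on the log2 scale, and a negative value means lower accessibility in dKO. Every listed region lay within the study's corrected P-value of 0.05, and unchanged regions were not part of the table. A gene without a region in it is thus a gene without a listed change, and not a gene with closed chromatin. The intervals in brackets are 95% counting intervals of the log2 change, computed from the reads that the means stand for. They leave out PCR duplication and the spread between libraries, which is unknown, and so measure counting error alone. The labels give an average of 25000000 sequenced reads per sample, and depth per library was not in the table. Because only changed regions were listed, the myeloid character of the cells could not be checked on marker genes here. The deleted genes went with their labels: the Cebpa region stood at 9.99 (WT) and -0.15 (dKO) on the log2 scale, the latter being the lowest value in the table, and the 2 Cebpb regions had 8.60 and 7.38 in WT against 3.37 and -0.15 in dKO.

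IGF1 and IGF2 are secreted growth factors that signal through the receptor tyrosine kinase IGF1R. The activated receptor phosphorylates the docking proteins IRS1 and IRS2, which recruit PI3-kinase and feed the AKT and mTOR pathways that drive growth and survival. IGF2R, the cation-independent mannose 6-phosphate receptor, takes up IGF2 for degradation in lysosomes, and IGF-binding proteins hold the ligands in the extracellular space. In the mouse, Igf2r is imprinted: the long noncoding RNA Airn starts in an Igf2r intron, runs antisense across the Igf2r promoter and silences that allele. Myeloid cells and macrophages are known producers of IGF1.

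Within 50 kb of Igf1, accessibility was lower in dKO at both regions inside the gene and higher at the 1 region upstream of it. The sequences of Igf1 regions 1 and 3 are shown because these are the upstream region and the one with the largest change at the gene, together with the Igf2r intron region of highest WT mean for comparison. Each is 200 bases about the centre of the region, 5′ to 3′ on the plus strand of mm10. Capitals mark matches to 4 consensus motifs: TTGCNNAA or TTACNNAA for C/EBP, TGACTCA or TGAGTCA for AP-1, GAGGAAGT for PU.1 and AACCACA for RUNX, searched on both strands. In Igf1 region 1 a C/EBP match, TTGAGCAA, and a PU.1 match, ACTTCCTC, both read on the minus strand, share a base and appear as 1 run of capitals. The windows are chr10:87842582-87842781 and chr10:87901930-87902129 for Igf1 and chr17:12722760-12722959 for Igf2r.
Igf1 region 1: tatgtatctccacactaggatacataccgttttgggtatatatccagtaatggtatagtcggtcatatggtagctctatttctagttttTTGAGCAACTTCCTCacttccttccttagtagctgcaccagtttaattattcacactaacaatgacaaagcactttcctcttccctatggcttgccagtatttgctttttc
Igf1 region 3: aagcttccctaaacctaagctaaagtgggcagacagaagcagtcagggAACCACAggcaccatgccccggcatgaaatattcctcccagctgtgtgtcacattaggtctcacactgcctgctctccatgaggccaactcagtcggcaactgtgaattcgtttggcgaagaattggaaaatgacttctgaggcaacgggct
Igf2r region 3: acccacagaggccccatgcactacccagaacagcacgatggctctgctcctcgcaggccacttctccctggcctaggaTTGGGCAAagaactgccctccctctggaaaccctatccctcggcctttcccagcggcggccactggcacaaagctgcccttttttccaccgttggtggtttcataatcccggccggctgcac

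The other sequences shown are from the regions over start sites and from the regions in the bodies of Igfbp4, Igfbp7 and Irs1. None of these windows holds a match to the 4 motifs, and capitals mark CpG dinucleotides instead. For the start sites of Igfbp4 and Igf2r the 200 bases just upstream of the annotated start are given, and for the others the central 200 bases. The windows are chr11:99041044-99041243 for Igfbp4, chr5:77372769-77372968 for Igfbp7, chr1:82283189-82283388 for Irs1, chr17:12741325-12741524 for Igf2r region 4, where the window begins just past the annotated Airn start and holds none of the bases upstream of it, and chr17:12769665-12769864 for the Igf2r promoter (Igf2r region 6). They hold 16, 4, 12, 12 and 27 CpG sites, respectively, in that order.
Igfbp4 region 1: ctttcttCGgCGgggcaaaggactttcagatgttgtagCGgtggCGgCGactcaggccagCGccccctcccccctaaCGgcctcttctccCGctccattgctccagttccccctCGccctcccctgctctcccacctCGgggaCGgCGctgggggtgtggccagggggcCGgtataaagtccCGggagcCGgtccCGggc
Igfbp7 region 1: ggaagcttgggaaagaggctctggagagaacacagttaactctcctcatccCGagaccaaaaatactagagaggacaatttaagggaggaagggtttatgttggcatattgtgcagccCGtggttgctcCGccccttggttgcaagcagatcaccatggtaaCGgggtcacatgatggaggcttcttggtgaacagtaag
Irs1 region 1: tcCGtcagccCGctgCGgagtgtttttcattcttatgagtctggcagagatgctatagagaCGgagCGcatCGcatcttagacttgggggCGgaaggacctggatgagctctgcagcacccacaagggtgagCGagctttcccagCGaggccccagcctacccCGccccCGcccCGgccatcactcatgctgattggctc
Igf2r region 4: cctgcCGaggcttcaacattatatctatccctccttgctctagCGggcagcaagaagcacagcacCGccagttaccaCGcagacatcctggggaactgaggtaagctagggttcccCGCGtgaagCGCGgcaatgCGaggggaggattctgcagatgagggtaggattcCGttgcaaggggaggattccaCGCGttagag
Igf2r region 6: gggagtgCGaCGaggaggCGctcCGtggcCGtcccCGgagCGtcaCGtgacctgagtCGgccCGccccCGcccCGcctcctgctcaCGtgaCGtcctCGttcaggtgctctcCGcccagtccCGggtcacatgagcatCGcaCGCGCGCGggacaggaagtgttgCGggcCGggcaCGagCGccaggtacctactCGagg

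Of the 16 regions, 9 were lower in dKO (56.2%) and 7 were higher (43.8%). Over all 10016 listed regions, 39.7% were lower and 60.3% were higher. The median log2 change was -1.55 at the members and 0.98 over all listed regions. Over the 4 member regions whose nearest annotated start is the member's own, 1 was lower and 3 were higher, and the median was 1.12. Igf2r alone held 6 of the 9 lower regions, and the other 9 regions divided into 3 lower and 6 higher. By gene, 3 members had a lower region, 6 had a higher region and 3 of these had both. Of 21755 protein-coding genes, 47.5% had 1 or more listed regions within 50 kb, 23.6% had 1 or more lower regions and 31.9% had 1 or more higher regions. The members had a median length of 58.6 kb against 17.4 kb for protein-coding genes, although Igf2, Igfbp3 and Igfbp4 were shorter than the latter. Among the 5753 protein-coding genes of 29.3 to 117 kb, 55.9% had a listed region, 28.7% a lower one and 37.6% a higher one. Of the members, Igf1, Igf2r, Igfbp7 and Irs1 fall in this range. The member regions were spaced at 9.12 per Mb of window, at 5.74 per Mb without Igf2r, and all listed regions at 3.8 per Mb of genome. Windows around genes and the whole genome are unlike measures, and the spacing in windows of other genes was not computed.

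**Figure D1:**
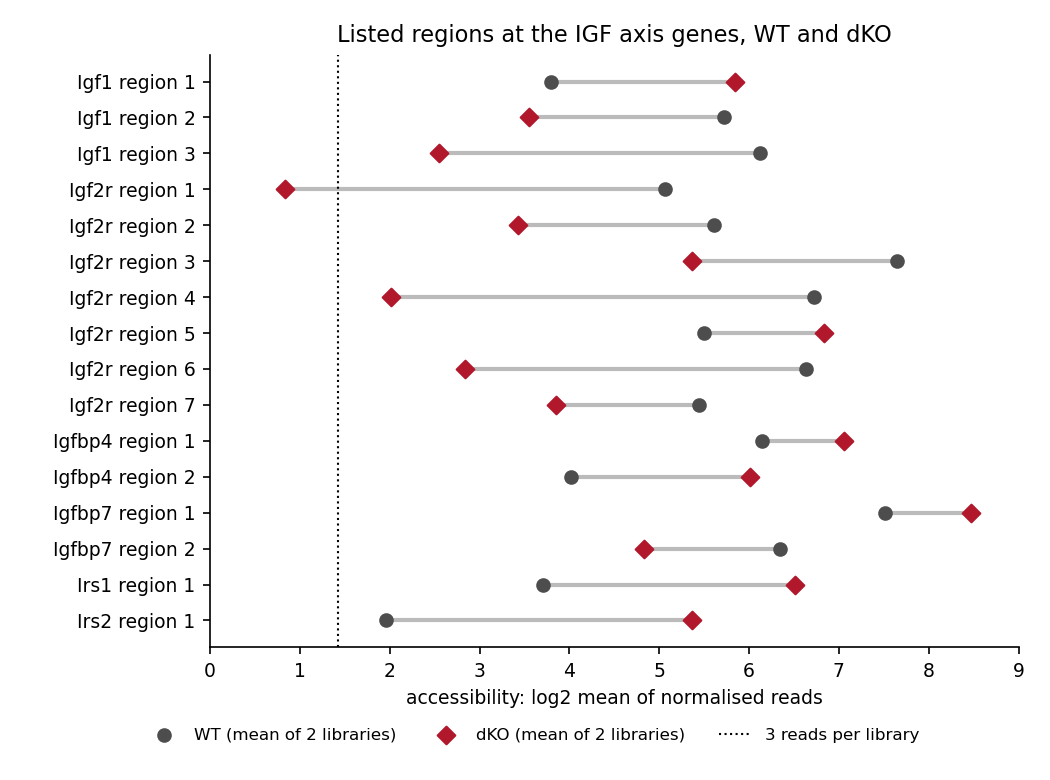
Accessibility of the 16 listed regions at the IGF axis genes. The x axis gives the authors' log2 mean of normalised reads over 2 libraries, grey circles stand for WT and red diamonds for dKO, the grey line joins the means of a region, and the dotted line marks 3 reads per library at a log2 mean of 1.43. The diamond is on the left in 9 regions, among them 6 of Igf2r and both in the Igf1 body, and on the right in 7.

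Igf1 (ENSMUSG00000020053.18, chr10:87858265-87937042, plus strand) encodes the ligand IGF1. Region 1 (chr10:87842509-87842855) lay 15.4 kb upstream of the gene, in an intron of the antisense gene Igf1os. Its log2 mean was 3.80 in WT and 5.84 in dKO, a change of 2.04 [1.46 to 2.65] or 4.11-fold higher. Region 2 (chr10:87889793-87890260) lay in an intron 31.5 kb past the start. It had 5.72 in WT and 3.55 in dKO, a change of -2.17 [-2.84 to -1.55] or 4.5-fold lower. Region 3 (chr10:87901750-87902311), also intronic at 43.5 kb, had the largest change of the 3. Its log2 mean was 6.12 in WT and 2.55 in dKO, a change of -3.57 [-4.51 to -2.75] or 11.9-fold lower. These means stand for 154 reads over both WT libraries and 13 over both dKO libraries. Of all lower regions, 8.77% had a larger fall. No listed region overlapped an annotated start of Igf1, and the nearest annotated start of all 3 was that of Igf1os. In the 1 Mb on either side beyond the 50 kb window, 5 regions were lower and 3 were higher.

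The 3 Igf1 regions also differed in the motifs they held. The upstream region, higher in dKO, held the C/EBP and PU.1 matches. The intronic regions held no C/EBP match in the central 200 bases or anywhere in the region. Region 2 held an AP-1 match and region 3 a RUNX match. A match is a run of letters and was not tested for binding.

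Igf2 (chr7:142650766-142666816), the fetal ligand gene and itself imprinted, had no listed region. The nearest one lay 227879 bp away, with Th as its nearest start, and had 5.93 in WT and 4.47 in dKO. Igf1r (chr7:67952827-68233668), the signalling receptor, had none either, although it is the longest member at 280842 bp. Its nearest listed region (chr7:68311605-68311908) lay 77.9 kb from the gene and had 5.54 in WT and 3.49 in dKO, a change of -2.05.

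Igf2r (ENSMUSG00000023830.14, chr17:12682406-12769664, minus strand) had 7 regions, of which 6 were lower and 1 was higher. Of all protein-coding genes, 0.202% (44 genes) had 6 or more lower regions within 50 kb. The cut of 6 was taken from Igf2r itself, the member with the most, so this share is a description and no test. It covers genes of all lengths (median 17.4 kb), while Igf2r is 87259 bp long, and the share at like length was not computed. The excess of lower over higher regions depended on the assignment: higher minus lower was -5 in the 50 kb window, -4 within 10 kb, -2 in the gene body, and 0 over the 2 regions whose nearest start is that of Igf2r. The start sites of both Igf2r and Airn were among the lower regions. Region 6 (chr17:12769405-12769929) covered the Igf2r promoter and first exon, with 5′ UTR and coding sequence. Its log2 mean was 6.64 in WT and 2.84 in dKO, a change of -3.80 [-4.62 to -3.06] or 13.9-fold lower, from 221 and 16 reads. The region is 72.2% GC with 65 CpG sites. Region 4 (chr17:12741134-12741716) covered the start and first exon of Airn, 27.9 kb into Igf2r. It had 6.72 in WT and 2.02 in dKO, a change of -4.70 [-5.85 to -3.75] or 26.0-fold lower, from 234 and 9 reads. It is 55.9% GC with 23 CpG sites, and 2.06% of all lower regions had a larger fall. Reads of both parental alleles are counted together in these values.

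A larger fall than that of Igf2r region 6 was about as common among lower regions over a protein-coding start (7.62%) as among all lower regions (6.88%). Of 976 listed regions over a protein-coding start, 446 were lower (45.7%), with a median change of -1.58, and 35 were at or below -3.80. The 530 others were higher, with a median of 1.07.

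Region 3 of Igf2r (chr17:12722626-12723094) lay in an intron 46.6 kb from the start, on the far side of the Airn start, and had the highest WT mean of the 7. It had 7.65 in WT and 5.36 in dKO, a change of -2.29 [-2.63 to -1.96] or 4.89-fold lower, from 446 and 91 reads. Its central bases hold the C/EBP match TTGGGCAA. Region 5 (chr17:12754590-12754937) lay between the 2 start sites, 14.7 kb into Igf2r and 3790 bp from the start of a shorter Igf2r transcript. It was the only higher region of the 7, with 5.50 in WT and 6.83 in dKO, a change of 1.33 [0.99 to 1.68] or 2.51-fold. Region 7 (chr17:12779502-12779837), 9.84 kb upstream of Igf2r and over an Airn exon, had 5.44 in WT and 3.85 in dKO, a change of -1.59 [-2.21 to -0.99].

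The remaining pair lay past the 3′ end of Igf2r. Region 2 (chr17:12677217-12677572), 4.83 kb from the gene, had 5.61 in WT and 3.43 in dKO, a change of -2.18 [-2.87 to -1.52]. Repeats mask 55.1% of it, and it was the only member region masked over 50%, against 5.49% of all listed regions. Region 1 (chr17:12671039-12671313), 11.1 kb from the gene, had 5.07 in WT and 0.84 in dKO. The dKO mean was under the floor of 3 reads per library, so that accessibility was at least 12.4-fold lower. A C/EBP match lay in its central 200 bases. The 1 Mb on either side of this window held 5 lower and 9 higher regions with a median change of 0.89.

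**Figure D2:**
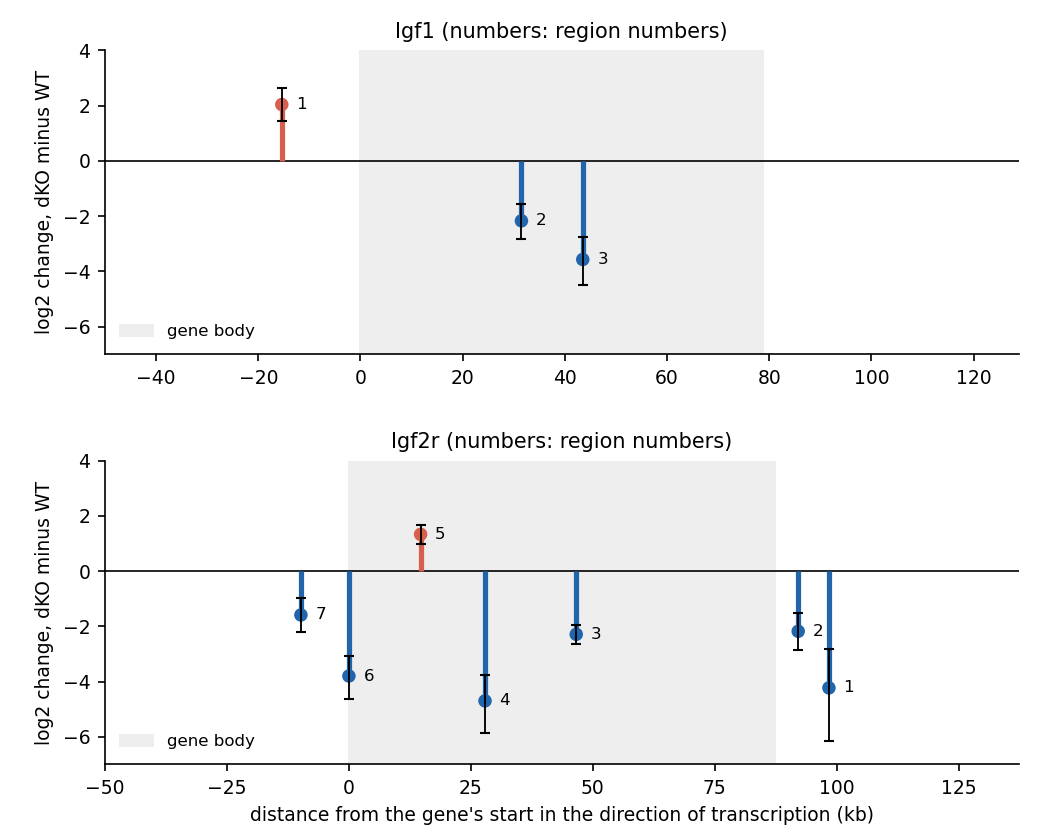
Changes at Igf1 (top) and Igf2r (bottom) by position. The x axis gives the distance from the gene's start in the direction of transcription in kb, the y axis the log2 change of dKO minus WT, points carry 95% counting intervals, numbers are region numbers and the grey band is the gene body. At Igf1 the upstream region is above 0 and both intronic regions are below 0. At Igf2r 6 of 7 regions are below 0, including number 6 at the Igf2r start and number 4 at the Airn start.

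The binding protein genes Igfbp4 and Igfbp7 had the 2 smallest changes of the 16, both in regions of high accessibility and both higher in dKO. Igfbp4 (chr11:99041244-99054392, plus strand) encodes a binding protein that mostly inhibits IGF action. Region 1 (chr11:99040975-99041809) covered its promoter and first exon, with 5′ UTR and coding sequence, 71.6% GC and 76 CpG sites. It had 6.15 in WT and 7.06 in dKO, a change of 0.91 [0.62 to 1.19] or 1.88-fold higher. Region 2 (chr11:99068453-99068821), 14.1 kb past the gene in an intron of Tns4, had 4.02 in WT and 6.01 in dKO, a change of 1.99 [1.45 to 2.56]. Igfbp7 (chr5:77349240-77408041, minus strand) encodes a secreted protein that binds IGFs weakly. Its intronic region 1 (chr5:77372529-77373210) had the highest dKO mean of all 16, with 7.51 in WT and 8.47 in dKO, a change of 0.96 [0.78 to 1.13] or 1.95-fold. Of all listed regions, 3.25% had a higher mean in their larger group. Region 2 (chr5:77425736-77426237), 17.7 kb upstream, had 6.34 in WT and 4.83 in dKO, a change of -1.51 [-1.95 to -1.09]. The changes of 0.91 and 0.96 were below the median of 0.98 over all listed regions, and they turn negative when that median is subtracted. Igfbp3 (chr11:7206086-7213923), the main carrier of circulating IGF, had no listed region within 416636 bp.

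Both adaptor genes had 1 region within 50 kb, and both were higher in dKO. Of all listed regions 60.3% were higher, and 31.9% of protein-coding genes had a higher region (37.6% of those of 29.3 to 117 kb). At 100 kb Irs2 gained 2 lower regions, so that higher minus lower turned from 1 to -1. Irs1 (chr1:82233101-82291416, minus strand) had an intronic region (chr1:82283009-82283569) 7.85 kb past its start. Its log2 mean was 3.71 in WT and 6.51 in dKO, a change of 2.80 [2.23 to 3.42] or 6.96-fold higher, from 29 and 202 reads. With 60.4% GC and 35 CpG sites it held more CpG sites than any other member region except the start-site regions of Igf2r and Igfbp4. The Irs2 region (chr8:10953725-10954028) was intergenic, 30.7 kb past the end of Irs2 (chr8:10984681-11008458, minus strand) and nearest to the start of the noncoding gene Gm44955. It had 1.96 in WT and 5.36 in dKO, a change of 3.40 [2.35 to 4.51] or 10.6-fold higher, from 9 and 91 reads. It had the largest rise of the 16, and 5.85% of all higher regions had a larger one. Igf2bp3 (chr6:49085223-49214957), which encodes a fetal protein that binds Igf2 mRNA, had no region. The nearest lay 128781 bp away by Fam221a, with 5.52 in WT and 6.82 in dKO.

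The assignment of regions to members rests on distance. Of the 16 regions, 9 overlapped a member's body (5 lower and 4 higher) and 4 had the member's own start as their nearest annotated start, namely Igf2r regions 5 and 6, Igfbp4 region 1 and the Irs1 region. The outermost region inside the 50 kb limit was that of Irs2 at 30.7 kb. Between 50 and 100 kb lay 6 more regions. One at Igf1 changed by -1.22 at 90.2 kb, the one at Igf1r by -2.05 at 77.9 kb, 2 at Igfbp4 by 1.55 at 50.5 kb and by 1.61 at 97.5 kb, and 2 at Irs2 by -1.72 at 53.9 kb and by -1.87 at 90.0 kb. In size, 14 of the 16 changes were at least 2-fold and 10 were at least 4-fold. Over all listed regions 85.5% were at least 2-fold and 36.6% at least 4-fold.

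C/EBP matches were counted at the members and over the table. In the central 200 bases 3 of 16 regions held one, Igf1 region 1 and Igf2r regions 1 and 3, of which 2 were lower and 1 was higher. Over all listed regions 28.4% held one, 40.7% among lower ones and 20.2% among higher ones. AP-1 matches stood in 2 member regions, Igf1 region 2 and Igf2r region 5, against 17.9% of all regions. RUNX matches stood in Igf1 region 3 and Igf2r region 7, against 11.9%, and a PU.1 match in Igf1 region 1, against 9.17%. Over the whole region PU.1 matches also stood in Igfbp7 region 1 and the Irs1 region, 3 in all, against 13.2%. The start-site regions of Igf2r and Igfbp4 held none of the 4 over their whole length, and that of Airn held 1 C/EBP match outside its central bases.

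Beyond the members, 50 further genes of the insulin and IGF pathway were read in the same way. Of these, 28 (56.0%) had a listed region, 16 a lower one and 22 a higher one. The share with a region was 47.5% over all protein-coding genes and 55.9% over those of 29.3 to 117 kb. For lower regions these shares were 23.6% and 28.7%, and for higher regions 31.9% and 37.6%. The median length of the 50 genes was 62.9 kb. Their 61 regions divided into 24 lower and 37 higher (60.7%), close to the 60.3% of the table, with a median change of 1.05. Airn contributed 5 regions that were already described at Igf2r. The start nearest to a region was that of the listed gene in 25 cases.

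The hormones, receptor and binding proteins had 4 regions at 3 of 9 genes, all lower, where 39.7% of all listed regions were lower and 47.5% of protein-coding genes had a region. Insr, the insulin receptor gene, had one over a coding exon with 5.46 in WT and 3.32 in dKO, a change of -2.14. Igfbp6, which encodes a binding protein that prefers IGF2, had one 783 bp upstream of its start with 6.34 in WT and 4.73 in dKO, a change of -1.61, and a second with -0.87. The region near Igfals, the gene of the acid-labile subunit of circulating IGF complexes, changed by -1.59 and was nearest to the start of Hagh. Ins1, Ins2, Igfbp1, Igfbp2, Igfbp5 and Igfbpl1 had none. The binding protein proteases and their inhibitors (Pappa, Pappa2, Stc1 and Stc2) had none either. Of the relatives of Igf2bp3, Igf2bp2 had an intronic region with a change of 1.69 and Igf2bp1 had none.

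The adaptors had 12 regions at 5 of 7 genes, 6 lower and 6 higher. The shares over all features were 47.5% of protein-coding genes with a region (55.9% at like length), and 39.7% of regions lower and 60.3% higher. Gab1, a docking protein gene related in function to Irs1, had 4 regions and all were lower. The one over its start had 5.47 in WT and 2.17 in dKO, a change of -3.30 or 9.85-fold lower. Its neighbour 237 bp past the start changed by -2.17 and also covered the start of Gm31105. At Grb10, an imprinted inhibitory adaptor gene, the changes were -2.77, 2.57 and 1.57. Sos1, the gene of a Ras activator, had a region over a coding exon that changed by 2.98 and another over the start of Arhgef33 that changed by 4.39. Grb2 had 1 region with 2.27, and Shc1 had 2, with -1.61 and with 1.02, the latter over the start of Zbtb7b. Irs3 and Irs4 had none.

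The PI3K and AKT branch had 16 regions at 9 of 12 genes (47.5% of all protein-coding genes, 55.9% at like length), 7 lower and 9 higher (60.3% higher in the table). Pik3r1, the gene of a regulatory PI3-kinase subunit, had a region 262 bp from an annotated internal start with 5.27 in WT and 0.86 in dKO, the latter under the floor, so at least 14.3-fold lower. Its other region, in an intron, changed by -1.60. Inpp5d had an intronic region that changed by 0.71. Akt2 had one over an annotated start that changed by -0.75. Another, 17.0 kb upstream of Akt2 and over the start of 2310022A10Rik, had 4.82 in WT and 7.22 in dKO, a change of 2.40. Pik3cb and Pik3cd each had 3 regions in mixed directions, from -2.08 to 1.91 and from -1.23 to 1.77. Gsk3b had 2 regions beyond its end: one had 0.77 in WT, under the floor, and 4.69 in dKO, at least 9.55-fold higher, and the other changed by -2.32. Pik3ca had -1.12, Akt1 had 1.13, and Pik3r2 and Pdpk1 had none.

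The mTOR branch had 14 higher and 2 lower regions at 6 of 7 genes, against 60.3% higher in the table and a region at 47.5% of all protein-coding genes (55.9% at like length). Tsc2, an inhibitor of the pathway, had one over a coding exon with a change of 1.31 and an intronic one with 1.94. The 2 lower regions were another one at Tsc2 with -1.22 and one at Rptor with -1.93, both upstream of the gene. That of Tsc2 lay over the start of Slc9a3r2. The larger changes were 4.06 near Rheb, 3.74 near Tsc1 and 3.17 in an Rptor intron. At Rictor the region over its start changed by 0.58. In 11 of the 16 the nearest start was that of another gene, such as Gfi1b near Tsc1, Prkag2 near Rheb and Vmp1 near Rps6kb1. Mtor had none. Among the FOXO outputs, Foxo3 had an intronic region with 0.38 in WT, under the floor, and 5.12 in dKO, at least 12.9-fold higher, and Foxo1 and Foxo4 had none. Of the growth hormone input to Igf1 transcription, Ghr changed by -0.78 at its start and by 2.28 and 3.05 elsewhere, Jak2 by 1.65, 0.83 and 1.37, and Stat5a and Stat5b had no region. H19, the imprinted RNA next to Igf2, had none.

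**Figure D3:**
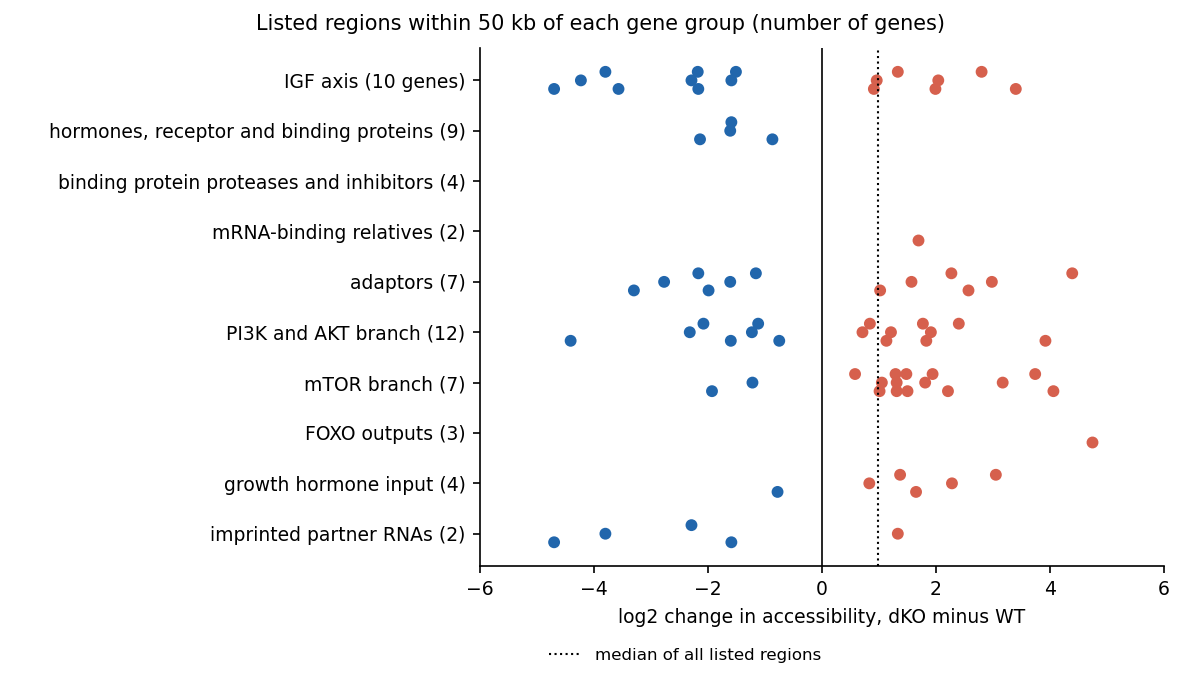
Log2 change of every listed region within 50 kb of the IGF axis genes (top) and of 9 groups of other pathway genes, with the number of genes in brackets. Each point is a region, blue is lower and red is higher in dKO, the vertical scatter within a group carries no value, and the dotted line is the median of 0.98 over all listed regions. The hormone, receptor and binding protein group has 4 points, all below 0, and the mTOR branch has 14 of 16 points above 0, where 39.7% of all listed regions were below 0 and 60.3% above; regions of Airn appear both in the top and the bottom row.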

How the data were processed

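ATAC-seq was performed on 6 samples in 3 groups of 2, and values were used for WT and dKO (4 libraries). The authors preprocessed reads with PiGx, aligned them to mm10 with Bowtie 2, called peaks with MACS2 and compared groups with DiffBind (2.14.0), partly per the submitters' processing notes. Duplicate handling and the Tn5 offset were not given in the sources used here. Kept duplicates would raise strongly amplified regions, and a missing offset would move edges by a few bases. The authors' deposited table (2 files with identical content) holds log2 means of normalised reads per group. It also holds the authors' fold changes, P-values and corrected P-values, which were not used except to check that each row met the study's threshold.

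Regions were joined to GENCODE M21 genes by any overlap with the body extended by 50 kb, using Python 3.11.15, pandas 2.3.3, numpy 2.4.6 and scipy 1.17.1. Coordinates are counted from 1. Sequences and repeat masking came from the RefSeq copy of GRCm38.p6, the chromosomes of mm10. Depth per library was not in the table. Group means up to 3 normalised reads all lay on whole-read steps (221 values in WT and 222 in dKO, tolerance 0.01), and the lowest was -0.15, so implied reads gave exact conditional binomial (Clopper-Pearson) intervals at 95%. One read was worth 1.23 times as much in one WT library as in its partner, and 1.02 times in dKO. A floor of 3 reads per library was a log2 mean of 1.43. The scripts were tested on simulated data.

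The members, the pathway list, the motifs and the rules were chosen with earlier results of these data known. Single regions were named when they lay in a member's body or within 5 kb of its start, or had the largest rise or fall of a member, and the remaining Igf2r and Igfbp regions were added so that all 16 are given. Sequences were shown for Igf1, for the region of highest mean in each body and, added after values were seen, for the regions over the Igf2r and Airn starts. The sequence of Igf1 region 2 and the results at some genes are not reported here.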

Additional observations from a re-analysis of the deposited data

How the results depend on the processing

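No paired analysis was possible because only group means were available, and for the same reason no library could be left out. The count of lower member regions was 9 as reported, 5 in gene bodies alone and 1 among regions whose nearest start is the member's. It was 7 to 13 under the other settings, namely 10 kb or 100 kb windows, most of the region inside, changes of at least 2-fold or 4-fold, larger means only, centring and the read floor. The count of higher regions was 7 as reported, 4 in gene bodies, 4 at 10 kb, 3 with the member's start nearest and 3 at 4-fold or more. It was 5 to 9 under the others. The median change of -1.55 was -2.17 in gene bodies and at 10 kb, -2.24 at 4-fold or more and -2.53 after subtraction of the median over all listed regions. It was 1.12, of opposite sign, over the 4 regions whose nearest start is the member's. By gene, higher minus lower regions moved in 18 of 92 combinations and changed sign in 1, Irs2, from 1 to -1 at 100 kb. The 92 include Igf2, Igf1r, Igfbp3 and Igf2bp3, which had no listed region to lose, and of these only Igf1r moved, at 100 kb. A move to or from 0 is not counted as a change of sign, such as Igf2r from -5 to 0 with the member's start nearest. Igfbp7 went from 0 to -2 after centring. A further 8 combinations left no region and gave no value: Igf1, Igfbp7 and Irs2 with the member's start nearest, Irs2 also in gene bodies, at 10 kb and with larger means only, and Igfbp4 and Igfbp7 at 4-fold or more. Genes with a region numbered 6 as reported (47.5% of protein-coding genes), 5 in gene bodies (17.0%) and 5 at 10 kb (25.0%). These shares are over genes of all lengths, with a median of 17.4 kb against 58.6 kb for the members. Shares at like length were not computed for gene bodies or 10 kb. Regions with a C/EBP match numbered 3 in the central 200 bases, 6 in 400 and 5 over the whole region, against 28.4%, 41.1% and 42.9% of all listed regions. Those with a PU.1 match numbered 1, 3 and 3, against 9.17%, 12.1% and 13.2%. Raising means to the floor of 3 reads per library left the counts at 9 and 7 and the median at -1.55. Read numbers were low in places: 4 reads stand for the lowest dKO mean among the members, and 202 WT and 235 dKO means of the table are at or under the floor.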
